A study of Homo sapiens with 8 samples.

Results

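Tight junction genes were followed through knockdown of BOLA3-L, an isoform of BOLA3, in KYSE150, a cell line derived from esophageal squamous carcinoma. They are 9 of the 15852 genes counted, taken by symbol: the scaffold genes TJP1 and TJP3, the plaque gene CGN, the claudins CLDN1, CLDN4 and CLDN7, the membrane protein genes OCLN and MARVELD2, and the adhesion gene F11R. The 4 control libraries have the genotype label Control and the 4 knockdown libraries the label ShBOLA3-L, and the treatment label is None in both groups. The labels do not say which hairpin or vector was used, whether a group was 1 clone, or whether its libraries came from separate cultures, so p-values measure a spread between libraries that may be technical. BOLA3 acts in mitochondria in the handing on of iron-sulfur clusters, and the series title concerns the inclusion of its exon 3 in this cancer.

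Tight junctions seal the space between neighbouring epithelial cells near their apical side. Claudins form the strands of the seal and set which ions pass, while occludin (from OCLN) and tricellulin (from MARVELD2) lie in the same strands, tricellulin mainly at the corners where cells meet. ZO scaffolds, such as those encoded by TJP1 and TJP3, bind these membrane proteins from inside and, with cingulin (from CGN), tie them to actin.

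Sequence before a transcript start of TJP1, TJP3 and CGN is shown because these were the genes that changed, and not all in the same direction. RefSeq windows (GRCh38.p14) were found for 8 of the 9 genes, and the printed stretches were trimmed to lie outside annotated exons. The TJP1 start is the outer end of the gene, whereas the TJP3 start, the second of its 2, and the CGN start lie inside the gene spans given with their values. TJP1 has 4 starts in that table, TJP3 has 2 and CGN has 1, and counts per gene do not tell which start was used. Each runs 5′ to 3′ on the strand of the gene. Capitals mark GC boxes (GGGCGG or CCGCCC) and E-boxes (CAGGTG or CACCTG), so both strands were searched.
TJP1 (chr15:29969050-29969299, minus strand): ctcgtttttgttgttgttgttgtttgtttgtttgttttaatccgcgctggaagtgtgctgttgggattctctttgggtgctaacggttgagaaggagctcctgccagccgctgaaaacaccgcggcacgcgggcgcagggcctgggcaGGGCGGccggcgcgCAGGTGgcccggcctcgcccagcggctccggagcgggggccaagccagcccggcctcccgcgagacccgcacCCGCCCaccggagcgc
TJP3 (chr19:3721487-3721616, plus strand): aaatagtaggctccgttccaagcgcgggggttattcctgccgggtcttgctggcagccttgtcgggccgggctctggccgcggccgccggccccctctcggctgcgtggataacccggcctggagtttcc
CGN (chr1:151511137-151511386, plus strand): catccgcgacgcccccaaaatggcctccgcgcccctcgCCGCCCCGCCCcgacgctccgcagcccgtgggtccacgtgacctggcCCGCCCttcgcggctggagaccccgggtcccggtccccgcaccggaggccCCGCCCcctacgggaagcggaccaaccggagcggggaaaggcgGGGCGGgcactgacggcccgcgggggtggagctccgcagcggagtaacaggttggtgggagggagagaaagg
The CGN stretch holds 5 GC boxes, the first 2 of which overlap, and 0 E-boxes. In the TJP1 stretch there are 2 GC boxes and 1 E-box, and in the TJP3 stretch 0 of either. That stretch is only 130 bases long, 250 to 121 before the start. The trimmed rest of the window of 250 bases holds 1 GC box and 1 E-box, and the window of the other TJP3 start 1 GC box. Windows of the other TJP1 starts hold 0 E-boxes each, and 0, 1 and 3 GC boxes. A GC box occurs in 42.6% and an E-box in 17.5% of all 35116 windows of the 250 bases before a start. Of the 14 such windows of these genes, 11 hold a GC box and 5 an E-box. The grainyhead motif AACCGGTT occurs in 0 of them (0.117% of all windows), and the ETS core CCGGAA or TTCCGG in 1, a window of CLDN7 (14.5% of all windows). A match is a run of letters, not a measured binding site.

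Libraries held 31178036 to 35147860 counts. BOLA3 stood at 19.1 to 21.8 CPM (counts scaled to the TMM-normalised library total) in controls and 6.06 to 7.29 CPM in knockdown libraries, all isoforms together (log2 change -1.66, edgeR adjusted p 6.9e-11). BOLA3-L knockdown replicate 1 stood apart: its second principal component was 20.1, against -10.1 to -4.81 in the other knockdown libraries. In it, the 1181 tested genes of highest transcript GC content (at least 62.2%) deviated from the knockdown mean by a median of -0.22 on the log2 scale, and the 1181 of lowest (up to 38.7%) by 0.13. Of 12 epithelial and squamous markers 10 were tested, of which 1 rose and 7 fell, against 15.0% and 15.6% of all tested genes. The 12 summed to 8965 to 9013 CPM in controls and 6754 to 8116 CPM after knockdown. EPCAM rose, and KRT5 (log2 change -0.69), KRT14 (-1.14), KRT6A (-1.55) and TP63 (-0.49) were among the falls. KRT19 (0.0388 CPM in controls) and SOX2 (0.125 CPM) were near the counting floor. Fibroblast markers (7 in the table) summed to 9.94 to 14.8 CPM in controls and 4.53 to 7.26 CPM after knockdown, mostly COL1A1, with DCN at 0.0390 CPM in controls. The 2 tested ones fell, COL1A1 (-1.28) and LUM (-1.53, from 0.669 to 0.232 CPM). Leukocyte markers (8 in the table) summed to 77.7 to 84.7 and 73.9 to 79.5 CPM, mostly CD68, with PTPRC at 0.0539 CPM in controls. Only 1 was tested, and it did not pass. Endothelial markers (6 in the table) summed to 1.52 to 2.25 and 2.21 to 2.90 CPM, with PECAM1 at 0 in controls. Of 2 tested ones 1 rose, CDH5 (0.79, from 0.993 to 1.71 CPM), and 0 fell. Their part in the results was not tested.

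After knockdown TJP1, the gene for ZO-1, fell, while TJP3, the gene for ZO-3, and CGN rose. CLDN4, CLDN7, OCLN, MARVELD2 and F11R did not pass the test, and CLDN1 was too low to be tested. Of the 8 tested genes 2 thus rose and 1 fell at an adjusted p under 0.05 in edgeR's quasi-likelihood test, which called 30.7% of 11841 tested genes, 15.0% as higher and 15.6% as lower. The 2 groups did not overlap in 4 of the 8 (TJP1, TJP3, CGN and CLDN7), as in 30.2% of all tested genes; 3 of these were higher after knockdown, against 14.6% of all. Leaving out BOLA3-L knockdown replicate 1 brought the rises to 4, with CLDN4 and CLDN7 added. With GC-corrected offsets as well, 2 rose. In bulk RNA, fewer cells of a type and less RNA per cell cannot be told apart.

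TJP1 clusters claudins and occludin beneath the membrane through its ZO-1 product. The control libraries held 444, 479, 466 and 445 CPM, in replicate order, and the knockdown libraries 404, 361, 368 and 363 CPM. All knockdown libraries lay below all controls, and knockdown replicate 1 lay nearest to them. Group means were 459 ± 17.1 and 374 ± 19.99 CPM (SD, n = 4 each), a difference of -18.4% or -0.29 on the log2 scale (SE 0.0399; edgeR adjusted p 2.2e-05). TJP1 (identifier 7082) lies at chr15:29699367-29969049 on the minus strand of GRCh38.p14.

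TJP3 encodes ZO-3, the ZO protein found mostly in epithelia. Its control values were 7.34, 7.29, 6.95 and 6.78 CPM and its knockdown values 8.59, 12.4, 12.7 and 12.7 CPM, resting on 223 to 437 counts per library. All knockdown libraries lay above all controls, replicate 1 by much less than the other 3. The mean went from 7.09 ± 0.270 to 11.6 ± 2.01 CPM (n = 4 each, SD), and edgeR gave a log2 change of 0.71 (SE 0.114, adjusted p 0.000117). Only 3.47% of tested genes changed further in either direction. TJP3 transcripts have 63.2% GC, among the 1181 genes in which knockdown replicate 1 ran low. That change was 0.70 with GC-corrected offsets, 0.83 without that library and 0.76 with both. TJP3 (identifier 27134) lies at chr19:3708384-3750813 on the plus strand.

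CGN encodes cingulin, which links ZO proteins to actomyosin. Control libraries gave 61.9, 63.2, 63.9 and 61.8 CPM and knockdown libraries 69.2, 79.9, 78.9 and 80.7 CPM. The groups did not overlap, and knockdown replicate 1 was again the one closest to the controls. The mean rose from 62.7 ± 1.02 to 77.2 ± 5.34 CPM (SD, 4 libraries each), which is 0.30 on the log2 scale (SE 0.0501; adjusted p 0.000183 in edgeR). That change was 0.30 with GC-corrected offsets, 0.35 without knockdown replicate 1 and 0.32 with both. CGN (identifier 57530) lies at chr1:151510170-151538692 on the plus strand. Its relative CGNL1, paracingulin, stood at 0.0542 CPM in controls and was not tested.

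**Figure D1:**
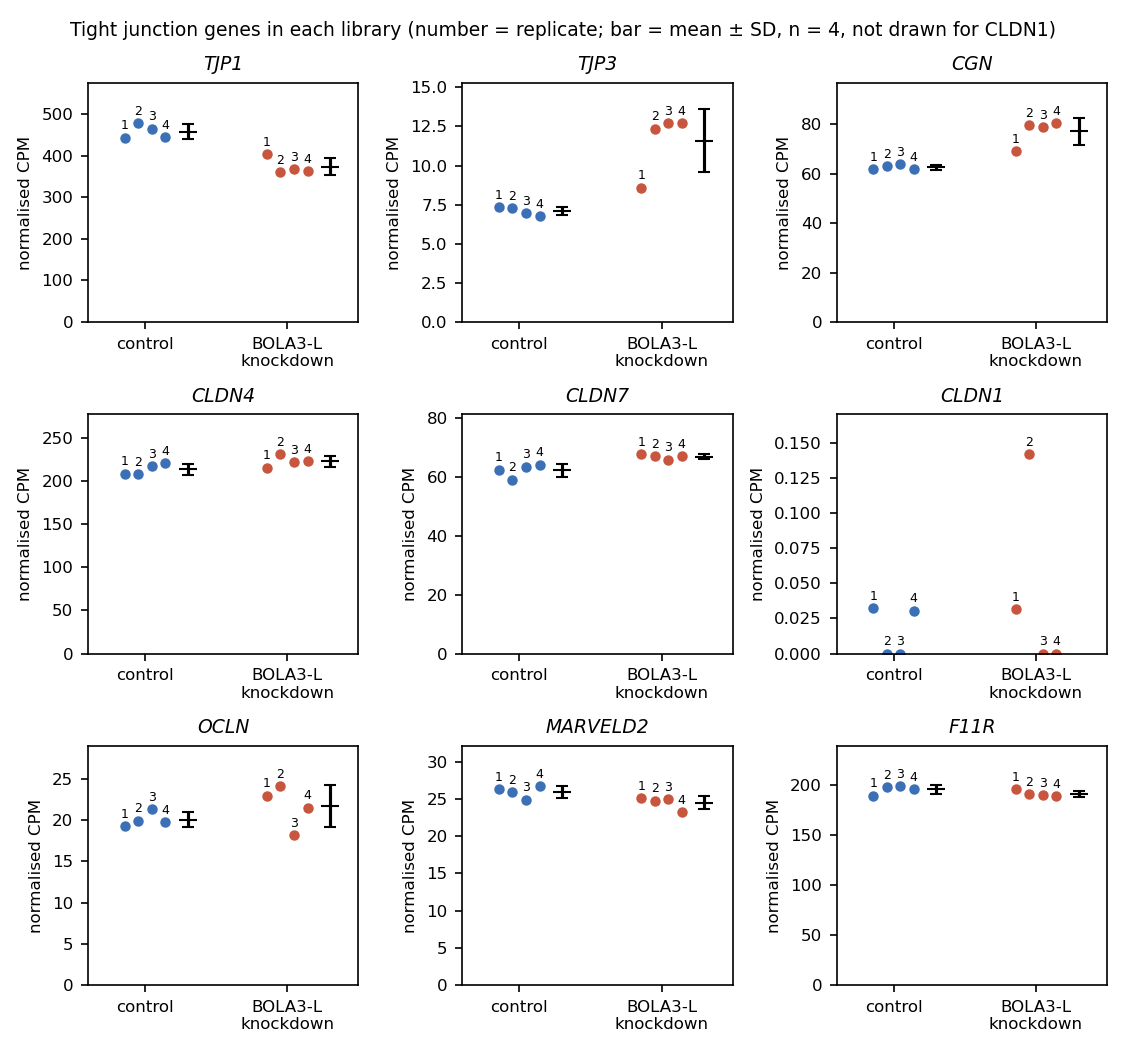
Normalised CPM (vertical axes, from 0) of the 9 tight junction genes in each library. Points are libraries numbered by replicate, blue for control and red for BOLA3-L knockdown, and bars give mean ± SD (n = 4) except for CLDN1; TJP1 lies lower and TJP3 and CGN higher in all 4 knockdown libraries, with replicate 1 nearest to the controls in each.

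Per length, in FPKM, TJP1 was 24.1 ± 1.07 times as high as TJP3 in controls and 12.4 ± 3.37 times after knockdown (SD, n = 4 each). The lowest control ratio was 22.5 and the highest knockdown ratio 17.5, in replicate 1, so the groups did not overlap. The other knockdown libraries gave 10.6 to 10.9. Such within-library ratios do not depend on scaling between libraries and were not tested. They were not corrected for GC content, which is 63.2% in TJP3 and 44.8% in TJP1 transcripts.

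CLDN4, a sealing claudin of many epithelia, was the highest claudin by the deposited FPKM. Controls held 209, 208, 217 and 220.4 CPM and knockdown libraries 215, 231, 222 and 223 CPM, so the groups overlapped. The estimated log2 change was 0.061 (95% interval -0.015 to 0.14; edgeR adjusted p 0.221). It passed only without knockdown replicate 1 (0.078; adjusted p 0.0224, against 0.0224 to 0.464 over all alternatives), and with GC-corrected offsets added it was 0.042 (adjusted p 0.229). CLDN4 (identifier 1364) lies at chr7:73830996-73832690, plus strand.

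CLDN7 encodes a claudin that also binds EPCAM. Its controls held 62.3, 59.0, 63.4 and 64.0 CPM and its knockdown libraries 67.5, 66.8, 65.7 and 66.9 CPM. All knockdown libraries lay above all controls, yet the log2 change of 0.10 (95% interval 0.010 to 0.19) did not pass in edgeR (adjusted p 0.0869). CLDN7 did pass when knockdown replicate 1 was left out (adjusted p 0.0432) and with limma on log2 FPKM (adjusted p 0.0173 to 0.0401 over 3 settings), within a range of 0.0173 to 0.293 over all alternatives. The highest of these came with GC-corrected offsets and replicate 1 left out. For CLDN7 (identifier 1366, chr17:7259903-7263213, minus strand), 15.3% of sequence windows also lie in AC003688.1.

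CLDN1, the claudin of the epidermal barrier, had 1, 0, 0 and 1 counts in the controls and 1, 5, 0 and 0 in the knockdown libraries. In 7 of 8 libraries it lay under the floor of 3 counts (0.0851 to 0.0969 CPM), so no fold is given, and a lower level than this was not detectable at this depth. CLDN1 (identifier 9076) lies at chr3:190305707-190322446, minus strand.

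By FPKM, CLDN4 made up 58.4 ± 0.213% of the claudin sum in controls and 57.8 ± 1.42% after knockdown (SD, n = 4 each). CLDN7 made up 18.0 ± 0.359% and 18.4 ± 0.234%, and CLDN12, an atypical claudin, 20.3 ± 0.198% and 20.2 ± 1.57%. Together these 3 held 96.5% to 96.8% of the sum in controls and 96.2% to 96.8% after knockdown. The sum was 214 ± 5.43 FPKM in controls and 229 ± 2.83 FPKM after knockdown. CLDN15, which forms cation channels, rose by 0.26 on the log2 scale, from 11.1 ± 0.0871 to 13.3 ± 0.642 CPM (edgeR adjusted p 0.0114). CLDN12 (0.071) and CLDN9 (-0.034) did not pass.

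OCLN and MARVELD2 encode relatives with a MARVEL membrane domain and lie next to each other among the listed genes on chromosome 5, 48.2 kb apart. OCLN (identifier 100506658, chr5:69492547-69558104) held 19.3, 19.9, 21.3 and 19.7 CPM in controls and 23.0, 24.2, 18.2 and 21.5 CPM in knockdown libraries. Knockdown replicate 3 lay below every control and the other 3 above every control. With a log2 change of 0.11 (95% interval -0.050 to 0.28), OCLN did not pass (edgeR adjusted p 0.291). The estimate was 0.058 without knockdown replicate 2 and 0.19 without replicate 3. Of its sequence windows, 10.5% also lie in the pseudogene OCLNP1.

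MARVELD2 (identifier 153562, chr5:69415116-69444330) held 26.3, 25.9, 24.9 and 26.8 CPM in controls and 25.1, 24.8, 25.01 and 23.2 CPM in knockdown libraries. The groups overlapped, and the change of -0.083 on the log2 scale (95% interval -0.20 to 0.037) did not pass (edgeR adjusted p 0.294).

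F11R encodes JAM-A, an immunoglobulin-like adhesion molecule that recruits polarity proteins. It held 189, 198, 199 and 196 CPM in controls and 196, 190.3, 189 and 188 CPM in knockdown libraries. These overlapped, and the log2 change of -0.033 had a 95% interval of -0.11 to 0.040 (edgeR adjusted p 0.510). For F11R (identifier 50848, chr1:160995211-161021152, minus strand), 42.0% of sequence windows also lie in the overlapping model AL591806.3.

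Ordered by FPKM in controls (mean ± SD, n = 4), CLDN4 came first at 125 ± 3.56, then TJP1 at 52.1 ± 2.005, F11R at 41.1 ± 0.949 and CLDN7 at 38.6 ± 1.36. CGN followed at 11.9 ± 0.201, MARVELD2 at 5.59 ± 0.169, OCLN at 3.15 ± 0.139 and TJP3 at 2.17 ± 0.0828, with CLDN1 last. The FPKM of CLDN4 rests on a gene length of 1.695 kb, whereas the GENCODE transcript used here for its GC content has 4163 bases, so its rank and the claudin shares depend on the length taken. F11R and CLDN7 were the only neighbours whose control libraries overlapped. After knockdown TJP1 (43.1 ± 2.46 FPKM), CLDN7 (42.1 ± 0.543) and F11R (40.7 ± 0.7995) each overlapped the next, and TJP3 (3.59 ± 0.613) overlapped OCLN (3.46 ± 0.410).

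**Figure D2:**
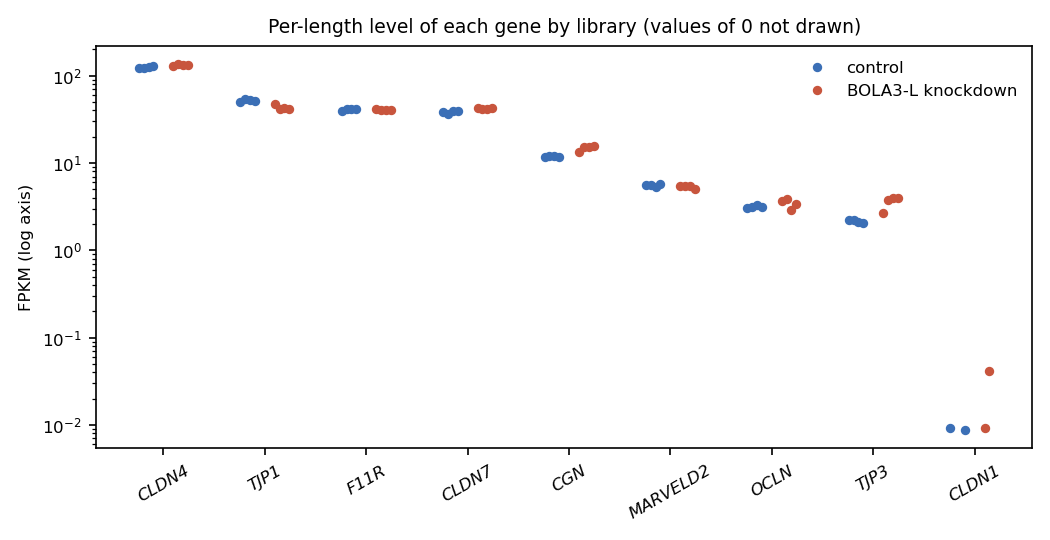
FPKM of each tight junction gene (log axis) in every library, ordered by the control mean, blue for control and red for BOLA3-L knockdown, with values of 0 not drawn. CLDN4 lies highest, and TJP3 moves from 2.17 to 3.59 FPKM, where it overlaps OCLN.

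Over the 8 tested genes the median log2 change was 0.081, against 0.0014 over all tested genes, and the median size of the change was 0.108 against 0.113. For TJP1 and CGN, 15.9% and 15.5% of tested genes changed further in either direction. For F11R that share was 83.8%, and for CLDN4 70.5%.

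**Figure D3:**
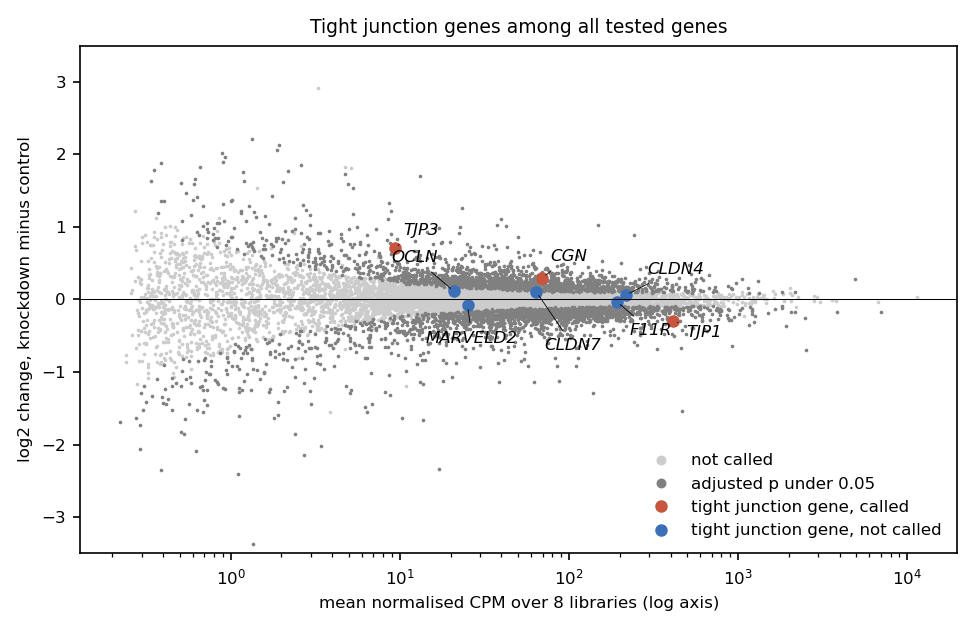
Log2 change (knockdown minus control, vertical axis) against mean normalised CPM over 8 libraries (log axis) for 11841 tested genes, dark grey where the adjusted p is under 0.05. Tight junction genes are red where called (TJP3 at 0.71, CGN at 0.30, TJP1 at -0.29) and blue where not.

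The rest of the pathway was taken from 4 lists of 79 further tight junction genes, of which 66 were in the table and 52 were tested. Of these 10 rose and 9 fell, 36.5% together against 30.7% of all tested genes, with a median log2 change of 0.0066. Only 5 fell without control replicate 1, and 5 without BOLA3-L knockdown replicate 2. Plaque proteins accounted for 6 rises and 5 falls of 20 tested, regulators for 3 and 4 of 21, and claudins for 1 and 0 of 4. Of 7 other membrane proteins 0 rose and 0 fell by edgeR's adjusted p; at an unadjusted p under 0.05 1 was higher and 1 lower, and DESeq2 called 0.

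Among plaque proteins PARD6A, an adaptor of the PAR polarity complex, rose from 6.49 ± 0.733 to 11.1 ± 1.253 CPM (log2 change 0.77, edgeR adjusted p 2.5e-05). PARD3B, a relative of the polarity protein PARD3, rose from 3.37 ± 0.641 to 6.61 ± 1.07 CPM (0.97), and the angiomotin AMOTL2 from 182 ± 6.67 to 223 ± 15.6 CPM (0.29). YBX3, also called ZONAB, a nucleic acid binding protein that docks on ZO-1, fell from 413 ± 8.93 to 348 ± 15.7 CPM (-0.25). Named after their values were seen, the other rises were PRKCI (0.19), PATJ (0.12) and AMOT (1.16). PATJ only just passed (edgeR adjusted p 0.0499). AMOT was low, with 9 to 13 counts per control library (mean 0.359 CPM) and 22 to 32 per knockdown library (mean 0.809 CPM). The other falls, also named after their values were seen, were AFDN (-0.16), MAGI3 (-0.16), TJAP1 (-0.18) and PARD6G (-0.37).

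Among regulators EPCAM, which binds claudin-7, rose from 132 ± 1.01 to 153 ± 5.34 CPM (log2 change 0.21, edgeR adjusted p 0.000419). RAB25 (0.21) and RAB13 (0.20), small GTPases of membrane traffic, rose too, although 44.3% of RAB13 windows also lie in other genes. The ubiquitin ligase NEDD4L fell (-0.15), as did ITCH (-0.14), ARHGEF2 (-0.20) and STRN (-0.17), these last 3 named after their values were seen. In ITCH and STRN, knockdown replicate 1 lay within the control range. It held 270 CPM of ITCH against 268 to 277 CPM, and 114 CPM of STRN against 113 to 117 CPM.

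**Figure D4:**
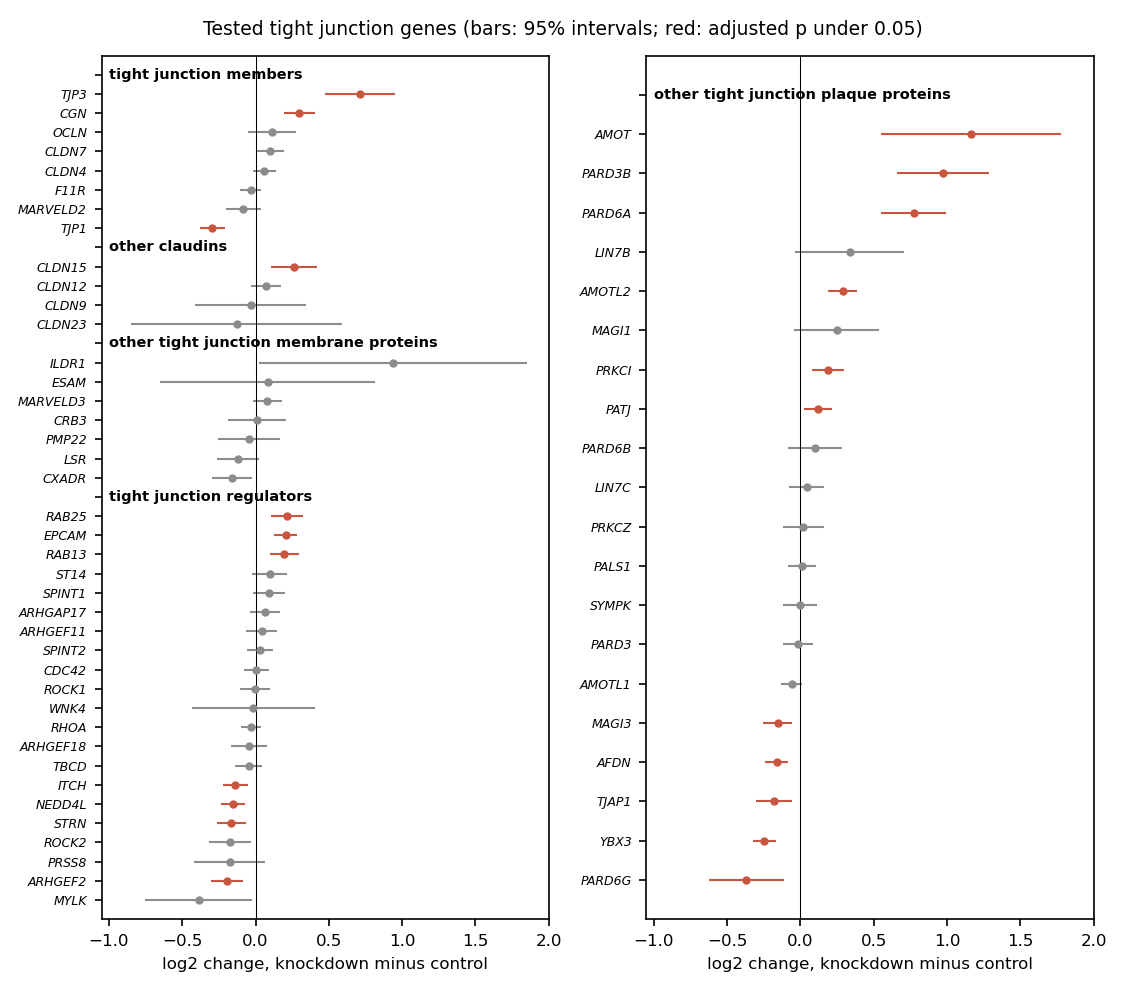
Log2 change (knockdown minus control, horizontal axes) with 95% intervals for the tested tight junction genes and the 4 further lists, red where the adjusted p is under 0.05. Of 20 plaque proteins 6 lie to the right of 0 and 5 to the left in red, while the 7 other membrane proteins are all grey.

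Neighbouring junctions were counted in the same way, and of all tested genes 15.0% rose and 15.6% fell. Of 11 tested adherens junction genes 2 rose, alpha-catenin CTNNA1 (0.28) and PLEKHA7 (0.19), and 3 fell, among them P-cadherin CDH3 (-0.22) and p120-catenin CTNND1 (-0.11). Of 9 tested desmosome genes 6 fell, among them PKP1 (-0.30), DSG3 (-0.31), PKP2 (-0.15) and DSP (-0.10), and 0 rose in edgeR. DESeq2 called 0 as higher, and an unadjusted edgeR p under 0.05 was reached by 0 of those with a positive change. The median log2 change was 0.081 in the 8 tested genes followed here and 0.0066 in the 52 other tested tight junction genes. It was -0.055 in adherens junction genes and -0.12 in desmosome genes, and the differences between these lists were not tested.

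Of 16 tested transcription and splicing factors of epithelial junction genes 1 rose and 8 fell, 56.2% against 30.7% of all tested genes. EHF, an epithelial ETS factor, fell from 28.5 ± 0.671 to 5.68 ± 0.946 CPM (log2 change -2.33, edgeR adjusted p 2.2e-12). TP63 (-0.49), SNAI2 (-0.52), a repressor that binds E-boxes, and KLF5 (-0.32) fell as well. Their part in the changes of TJP1, TJP3 and CGN was not tested.

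Over the 8 libraries, the genes most like TJP1 in log2 CPM among 10141 with a mean of at least 5 CPM were, by Pearson's r, NRAS (0.991), RFX7 (0.989) and RBM25 (0.988). Those most like TJP3 were BTBD2 (0.996), TKT (0.995) and CBX6 (0.992). The points share 2 groups and the deviation of knockdown replicate 1.

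**Figure D5:**
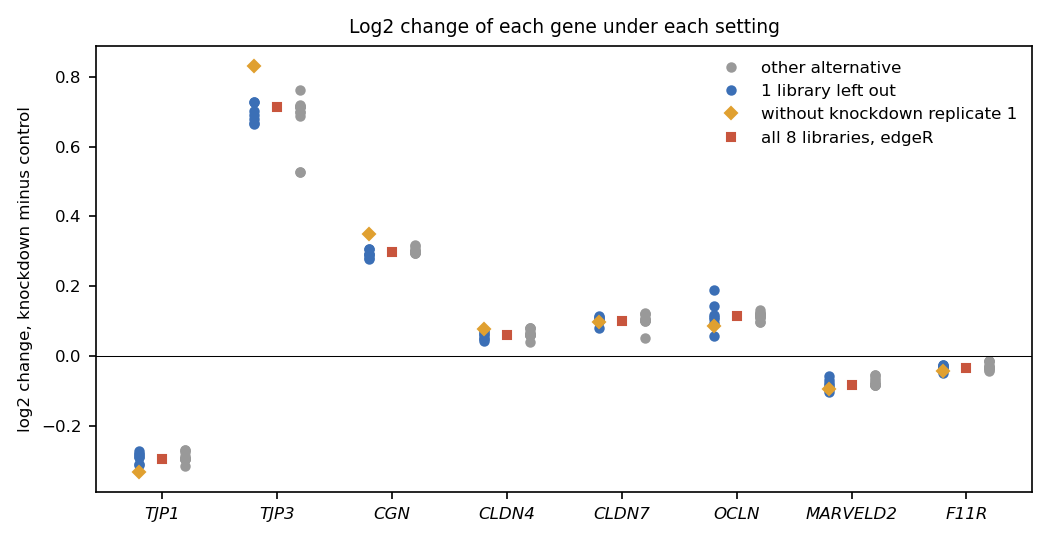
Log2 change (knockdown minus control) of the 8 tested genes with all libraries in edgeR (red squares), with 1 library left out (blue, and orange diamonds without BOLA3-L knockdown replicate 1) and under other alternatives (grey). Each gene keeps its sign under every setting drawn. TJP3 ranges from 0.53, with limma on log2 of FPKM plus 1, to 0.83, without knockdown replicate 1. With 0.1 added in place of 1, limma gives 0.69 for TJP3.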

How the data were processed

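Polyadenylated RNA of KYSE150 was sequenced as 150 bp paired reads, filtered with fastp, on build hg38 per the labels. Which aligner, counting tool, annotation and strand setting were used is not given in the sources used here. Raw counts per gene were deposited by the authors, as were FPKM values, which equal the counts rescaled by library total and gene length (110558 of 110558 values above 0, tolerance 1e-06).

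Counts were TMM-scaled, filtered with filterByExpr (11841 genes kept) and compared with edgeR's robust quasi-likelihood test, Benjamini-Hochberg adjusted over all kept genes at 0.05. On simulated counts this procedure recovered 84% of 50 genes changed 1.25-fold, with 11 false calls. The simulated counts had the same dispersion for all genes and no deviating library, unlike these data. SE is the size of the log2 change over the square root of F. GC-corrected offsets (lowess span 0.3) were added after seeing the data. Shared sequence is the share of 75-base windows, at steps of 25 bases, found in another GENCODE gene. 1 plaque gene is not reported here and was left out of its list.

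The genes, lists and tests were chosen with earlier results of these data known. By rule the text names BOLA3, the 9 genes, up to 4 called genes per list by smallest p, claudins of at least 1 FPKM, and the 3 genes most like TJP1 and TJP3. Outside this rule, CGNL1, KRT19, SOX2, DCN, CD68, PTPRC and PECAM1 were named for their level. So were the genes marked as named after their values were seen, for their calls. Python 3.11.15 ran pandas 2.3.3, numpy 2.4.6, scipy 1.17.1 and matplotlib 3.10.9; R 4.3.3 ran DESeq2 1.42.0, limma 3.58.1 and edgeR 4.0.16.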

Additional observations from a re-analysis of the deposited data

Results flagged for a closer look

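In TJP1, TJP3 and CGN, BOLA3-L knockdown replicate 1 stood far from the other 3 knockdown libraries. It held 404 CPM of TJP1 against 361 to 368 CPM, 8.59 CPM of TJP3 against 12.4 to 12.7 CPM, and 69.2 CPM of CGN against 78.9 to 80.7 CPM. In each the gap to the nearest other library, over the range of the group, exceeded Dixon's 95% critical value. Chance flags about 1 in 20 groups, 18 groups of 4 were examined, and the 3 values come from the same library.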

How the results depend on the processing

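The 8 log2 changes and that of BOLA3 kept their sign, and TJP1, TJP3 and CGN their calls, with RLE and upper quartile scaling, no filter, at least 1 CPM in 4 libraries, DESeq2, limma on log2 FPKM, GC-corrected offsets and each library left out. Leaving out 1 library gave 2 to 4 tight junction genes that rose, and 5 to 12 of the other tight junction genes that fell; the other alternatives gave 2 to 3 and 6 to 13. Over all genes 3630 were called, 4938 with GC-corrected offsets. Same-numbered libraries did not deviate together (correlations 0.00501, 0.000170, 0.0876 and -0.0444), and 2 of 8 correlated best with their own number. With the replicate block 3392 genes were called, 2 of the tight junction genes rose and 1 fell. The knockdown to control ratio of TJP3 over TJP1 was 1.94 to 2.24 with a library left out. Depth limits CLDN1.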

Other observations

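In the authors' deposited annotation all 9 genes carry both the term bicellular tight junction and the KEGG term Tight junction. Of 82 tested genes with the first, 14 rose and 19 fell (40.2% called in edgeR, against 30.7% of all tested genes). Of 122 tested genes with the second, 21 rose and 31 fell (42.6% called).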
